A study of Mus musculus with 2 samples.

Results

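The Th1 lineage genes described here are 8 genes, Tbx21, Ifng, Stat4, Il12rb2, Il18r1, Il18rap, Ly6c2 and Hopx, taken by their symbols from the 55487 genes of 2 single-cell RNA libraries of CD4 T cells. All 8 had reads in both libraries. The cells came from BAT, SAT, VAT and spleen (brown, subcutaneous and visceral adipose tissue, with spleen as the lymphoid tissue) of wild-type C57BL/6J male mice aged 8 weeks. No animal carried a transgene or received a treatment, per the labels, and the visceral depot is not named. Each library held 8 hashed samples, that is samples marked with their own barcoded antibody before pooling, with each tissue present in duplicate. The 16 hashed samples are called replicates 1 and 2 of a tissue (experiment 1) and 3 and 4 (experiment 2). The labels do not tell whether duplicates are separate animals, so the p-values measure only the spread between these samples, which may in part be technical.

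Th1 cells are the CD4 T helper cells that make interferon-gamma against intracellular microbes. IL-12 binds a receptor whose inducible chain is encoded by Il12rb2, and the bound receptor activates the transcription factor encoded by Stat4. Tbx21 encodes T-bet, the factor that defines the lineage and acts on Ifng, the gene of interferon-gamma itself. Il18r1 and Il18rap encode the chains of the IL-18 receptor, through which IL-18 adds to the IL-12 signal. Ly6c2 encodes a surface protein of the Ly6C antigen found on Th1 and memory T cells, and Hopx encodes a small homeodomain protein known from long-lived Th1 effector cells and from induced regulatory T (Treg) cells. T-bet also acts in a subset of Treg cells, the suppressive lineage defined by the factor Foxp3, and CXCR3 and CXCR6 are chemokine receptors carried by Th1 cells and by part of the Treg cells in tissues.

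In mm10, with GENCODE vM21, all 8 members are protein-coding. Tbx21 lies at chr11:97098071-97115331 on the minus strand and Ifng at chr10:118441046-118445892 on the plus strand. Stat4 lies at chr1:51987148-52107189 on the plus strand and Il12rb2 at chr6:67291318-67376188 on the minus strand. Il18r1 at chr1:40465552-40500854 and Il18rap at chr1:40515362-40551705 are neighbours on the plus strand, with 14508 bases between them. Ly6c2 lies at chr15:75108158-75111970 and Hopx at chr5:77086988-77115121, both on the minus strand. The Ifng gene spans Gm49751, an unverified gene model on the same strand, Stat4 overlaps Gm28177, a processed transcript on the same strand, and the pseudogene Gm3940 on the other, Hopx overlaps an antisense gene, Hopxos, and Il12rb2 overlaps Serbp1 on the other strand, so that UMIs of such pairs could be split between them in the authors' counting. Ly6c2 has a near-identical neighbour, Ly6c1: their longest transcripts were identical at 97.6% of 822 aligned bases, and 19.96% of the 50-base windows in the last 500 bases of Ly6c2 were found unchanged in Ly6c1. The Ly6c2 values are uncertain to that extent, and Ly6c1 is given beside them.

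The promoters were searched for a T-box motif (GGTGTGA), the letters bound by T-bet and its relatives, for a STAT motif (TTCNNNGAA) and for an AP-1 motif (TGANTCA), on both strands. RefSeq promoter entries of 300 bases, 250 before to 50 after a start, were given for 8 of 8 members. The STAT letters stood in 3 of the 13 entries of the 8 members, 1 each of Ifng, Il12rb2 and Il18r1, and in 8.30% of all 32851 entries of the mouse table. None of the 13 entries held the T-box letters, found in 3.98% of all entries, or the AP-1 letters, found in 7.81%. These matches describe letters in short windows, not binding. Printed here are the 250 bases before the start, 5′ to 3′ on the gene's strand (GRCm38.p6), for the ligand and receptor genes whose STAT letters lie there at a single start, and for Ly6c2 with Ly6c1, since these neighbours went opposite ways between the cell classes described further on. Capitals mark the STAT motif. The Ifng stretch is chr10:118440796-118441045 (plus strand), that of Il12rb2 chr6:67376189-67376438, that of Ly6c2 chr15:75111972-75112221 and that of Ly6c1 chr15:75048838-75049087 (minus strand).
Ifng: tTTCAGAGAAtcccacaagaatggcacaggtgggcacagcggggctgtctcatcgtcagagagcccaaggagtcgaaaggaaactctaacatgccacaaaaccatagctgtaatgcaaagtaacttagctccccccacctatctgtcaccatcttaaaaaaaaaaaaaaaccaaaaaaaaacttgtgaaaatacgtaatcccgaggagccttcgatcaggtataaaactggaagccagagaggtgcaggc
Il12rb2: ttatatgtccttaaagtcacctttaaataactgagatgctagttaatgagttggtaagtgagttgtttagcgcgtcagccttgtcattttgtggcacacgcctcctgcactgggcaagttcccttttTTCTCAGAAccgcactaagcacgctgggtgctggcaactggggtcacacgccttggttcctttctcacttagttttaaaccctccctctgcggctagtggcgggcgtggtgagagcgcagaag
Ly6c2: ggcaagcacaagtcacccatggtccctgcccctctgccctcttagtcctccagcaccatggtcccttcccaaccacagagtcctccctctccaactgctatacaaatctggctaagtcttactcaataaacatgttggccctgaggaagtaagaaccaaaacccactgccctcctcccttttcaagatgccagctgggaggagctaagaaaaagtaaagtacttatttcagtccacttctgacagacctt
Ly6c1: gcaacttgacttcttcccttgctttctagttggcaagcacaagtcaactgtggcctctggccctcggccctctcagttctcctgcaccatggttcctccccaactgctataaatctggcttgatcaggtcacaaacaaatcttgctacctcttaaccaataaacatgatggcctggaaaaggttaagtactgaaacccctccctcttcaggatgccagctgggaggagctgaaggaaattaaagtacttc
The STAT letters begin 249 bases before the Ifng start and 123 bases before that of Il12rb2. The printed stretches of Ly6c2 and Ly6c1 held none of the 3 motifs and were identical at 164 of 216 aligned bases (75.9%), which is less alike than their transcripts. Another entry of Ly6c1, from a different start, held the T-box letters from 112 bases before it.

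The cells had been sorted as live cells positive for TCRb, CD3 and CD4, after collagenase digestion for fat and mechanical dissociation alone for spleen. Of 4485 and 12239 barcodes in the libraries of experiments 1 and 2, 3985 and 9004 passed the filters, with medians of 6107 and 4306.5 UMIs (unique molecular identifiers, 1 for each captured RNA). T cells numbered 3685 and 8352, and 2841 and 6065 of them could be given to a hashed sample. The hashtags of SAT replicate 1 and BAT replicate 4 separated poorly from the background, so the cells given to these samples are less certain. The libraries shared 20 cell barcodes. The 7 T cell genes summed to between 4785 and 6954 CPM (UMIs per 1000000 UMIs of the sum) in the classes and tissues described here. Of the T cells, 832 had a Foxp3 UMI (Foxp3-positive) and 11205 had none (Foxp3-zero). The 6 Treg markers, Foxp3 among them, summed to 1562 to 2568 CPM in Foxp3-positive cells of the tissues and to 96.9 to 283 CPM in Foxp3-zero cells. Foxp3-zero therefore means that no Foxp3 UMI was seen in the cell, not that the cell was no Treg cell. In 37 B-like cells of the same libraries, which should lack the Th1 genes, no UMI of Tbx21, Ifng, Il12rb2, Il18r1 or Il18rap was seen, which allows a share of up to 8.11% of cells, and Ly6c2 had a UMI in 1 of them (2.70%). So few cells do not set low shares, such as those of Tbx21 in BAT and spleen, apart from background. Those cells had a median of 4225 UMIs, against 4889 in Foxp3-zero T cells, of which 12.9% had a Tbx21 UMI and 16.7% an Ifng UMI. Stat4 and Hopx had UMIs in 29.7% and 10.8% of B-like cells, against 43.7% and 31.2% of Foxp3-zero T cells, so that a UMI of either marks a Th1 cell less well.

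The first question was in which tissues Foxp3-zero CD4 T cells had higher levels of the Th1 genes. All 8 members were higher in SAT than in spleen, and all 8 were higher in VAT than in spleen. The fold changes were largest for Ifng, Ly6c2 and Tbx21, and smallest for Stat4. In BAT 4 members, Ifng, Tbx21, Ly6c2 and Hopx, were higher than in spleen, and all 8 were lower in BAT than in SAT or VAT. Raw UMIs were summed over the Foxp3-zero T cells of each hashed sample (236 to 886 cells, 1495195 to 4524122 UMIs), and the sums were tested with edgeR's quasi-likelihood test with experiment as a term. P-values were adjusted over all genes tested by the Benjamini-Hochberg method and a gene was called at an adjusted p under 0.05. In such sums, fewer cells that express a gene and less RNA per cell cannot be told apart.

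Tbx21 had 8.81, 9.42, 14.3 and 11.04 CPM in BAT, 127.0, 70.9, 53.9 and 67.9 CPM in SAT, 71.6, 91.5, 41.4 and 47.0 CPM in VAT, and 3.19, 3.50, 3.66 and 4.20 CPM in spleen (replicates 1 to 4). Ifng had 30.8, 22.5, 43.3 and 27.8 CPM in BAT, 317, 157, 206 and 241 CPM in SAT, 186, 167, 133 and 89.8 CPM in VAT, and 5.32, 5.25, 2.88 and 2.87 CPM in spleen. For both genes the 4 spleen samples were below the 4 BAT samples, and these below all 8 samples of SAT and VAT, with no overlap between these 3 ranges. The log2 fold change of Tbx21 was 4.19 ± 0.24 in SAT against spleen, 3.83 ± 0.25 in VAT against spleen and 1.54 ± 0.36 in BAT against spleen (± SE). For Ifng the changes were 5.81 ± 0.27, 5.13 ± 0.29 and 3.12 ± 0.38 in the same order. The adjusted p (edgeR) of Ifng was 1.04e-13 in SAT and 5.23e-06 in BAT, and that of Tbx21 in BAT was 0.00759.

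The receptor genes of the pathway also differed. Il12rb2 had 2.20, 2.62, 3.41 and 3.09 CPM in BAT, 24.9, 12.04, 8.48 and 24.2 CPM in SAT, 10.8, 5.29, 3.67 and 9.01 CPM in VAT, and 1.06, 2.63, 1.57 and 2.43 CPM in spleen. BAT overlapped spleen, and both lay below every SAT and VAT sample. The change was 3.003 ± 0.382 in SAT and 1.71 ± 0.44 in VAT against spleen (edgeR adjusted p 0.00375 in VAT), while the 0.54 ± 0.56 in BAT was not called (edgeR adjusted p 0.654). Il18r1 had 40.1, 49.2, 34.1 and 35.3 CPM in BAT, 70.4, 133, 58.7 and 84.8 CPM in SAT, 120.4, 115, 92.3 and 98.1 CPM in VAT, and 38.3, 33.7, 24.6 and 28.7 CPM in spleen. Il18rap had 4.84, 6.80, 9.20 and 4.42 CPM in BAT, 37.9, 44.1, 25.8 and 40.7 CPM in SAT, 56.0, 59.7, 33.8 and 36.4 CPM in VAT, and 6.38, 3.06, 2.88 and 1.55 CPM in spleen. For both chains of the IL-18 receptor, SAT and VAT lay wholly above spleen, and BAT overlapped it. Il18r1 changed by 1.33 ± 0.15 in SAT and 1.70 ± 0.15 in VAT against spleen and Il18rap by 3.45 ± 0.25 and 3.77 ± 0.24. In BAT neither was called, at 0.38 ± 0.17 for Il18r1 and 1.10 ± 0.36 for Il18rap (edgeR adjusted p 0.212 and 0.0609).

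Ly6c2 had 13.6, 20.4, 33.7 and 22.5 CPM in BAT, 305, 248.8, 218 and 284 CPM in SAT, 257, 178, 165 and 188 CPM in VAT, and 2.66, 18.8, 5.76 and 5.97 CPM in spleen. Spleen replicate 2 reached into the BAT range, and every SAT and VAT sample was above both. The change was 4.94 ± 0.24 in SAT, 4.55 ± 0.24 in VAT and 1.60 ± 0.34 in BAT against spleen. Ly6c1 went the other way, with 37.8 ± 11.8 CPM in SAT and 51.6 ± 13.8 CPM in VAT against 96.9 ± 7.16 CPM in spleen (SD, n = 4 each), a fall by 1.47 ± 0.15 and 0.94 ± 0.14, and its 96.1 ± 3.43 CPM in BAT was at the spleen level. Hopx had 37.4, 34.5, 75.6 and 67.6 CPM in BAT, 274, 243, 221 and 310 CPM in SAT, 236, 242, 203 and 194 CPM in VAT, and 30.9, 36.7, 31.6 and 30.3 CPM in spleen. BAT replicates 1 and 2, both of experiment 1, were close to spleen, and replicates 3 and 4 were above it. Hopx changed by 2.92 ± 0.16 in SAT, 2.69 ± 0.16 in VAT and 0.82 ± 0.19 in BAT against spleen. Stat4 was least different, with 108 ± 5.33 CPM in BAT, 188 ± 31.9 CPM in SAT, 176 ± 17.5 CPM in VAT and 99.5 ± 7.01 CPM in spleen (SD, n = 4 each). It rose by 0.79 ± 0.09 in SAT and 0.73 ± 0.09 in VAT, and its 0.16 ± 0.09 in BAT was not called.

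**Figure D1:**
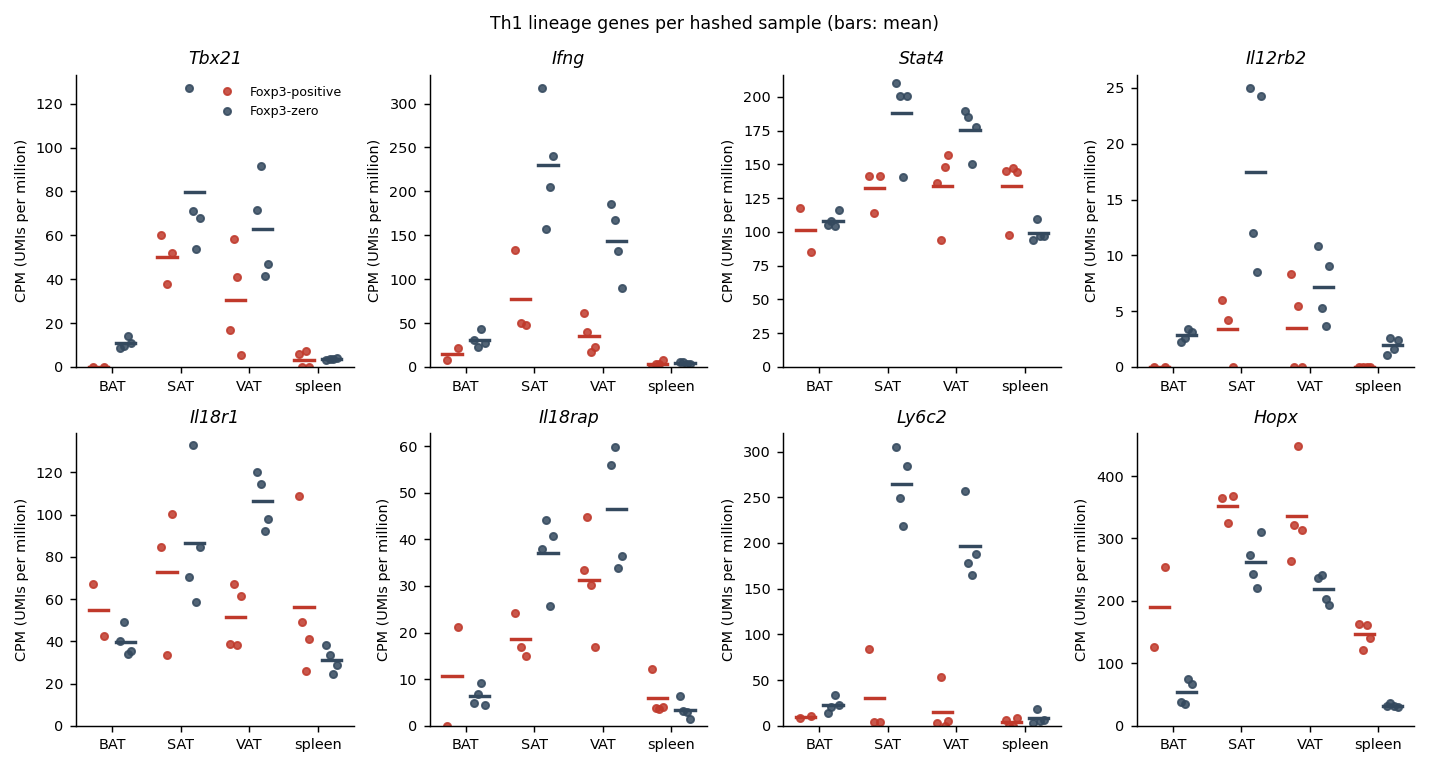
CPM of the 8 Th1 lineage genes (y axes, 1 panel a gene) in each hashed sample by tissue (x axis), with Foxp3-positive T cells in red on the left of a tissue and Foxp3-zero T cells dark on the right; points are sums of at least 20 cells and bars their means. In Foxp3-zero cells every SAT and VAT point is above every spleen point for all 8 genes, and Hopx is the gene whose Foxp3-positive points are above the Foxp3-zero points of the same samples throughout.

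Of the 9972 genes tested, 39.8% were called in SAT against spleen (21.2% higher), 36.5% in VAT against spleen (19.8% higher) and 7.96% in BAT against spleen (5.31% higher, 2.65% lower), beside 8, 8 and 4 of 8 members called higher. These comparisons share the spleen samples. The median log2 fold change of the members was 3.23 in SAT, 3.23 in VAT and 0.96 in BAT against spleen. In BAT against SAT, 34.6% of genes were called (18.2% lower), and in BAT against VAT 31.1% (16.5% lower), beside 8 of 8 members lower in each. Ly6c2 fell most there, by 3.34 ± 0.20 against SAT and by 2.95 ± 0.21 against VAT, and Stat4 least, by 0.63 ± 0.09 and 0.58 ± 0.09. In experiment 1 alone BAT against spleen called Ifng (2.39 ± 0.46) and no other member, with Tbx21 at 1.47 ± 0.51 (edgeR adjusted p 0.141), Hopx at 0.14 ± 0.16 and Ly6c2 at 0.60 ± 0.45, whereas experiment 2 alone called Tbx21, Ifng, Ly6c2 and Hopx (1.71, 3.66, 2.30 and 1.23). Without BAT replicate 3, Tbx21 (1.19 ± 0.37, edgeR adjusted p 0.0597) and Hopx (0.57 ± 0.18, edgeR adjusted p 0.0712) were not called.

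Digestion was used for fat and not for spleen, so tissue and digestion cannot be told apart in the comparisons with spleen. Markers of other states moved with tissue. The 6 NKT markers, none at 0, summed to 42.9 to 64.5 CPM in BAT, 56.8 to 129 CPM in SAT, 56.6 to 74.1 CPM in VAT and 33.5 to 42.9 CPM in spleen. With all T cells kept, 39.8% and 36.5% of genes were called in SAT and in VAT against spleen. Without the T cells that had a Klrb1c or Zbtb16 UMI, 8 members were still called in SAT and in VAT against spleen. NKT cells in which neither UMI was seen would remain, and their part in the levels was not tested. The 6 naive markers, none at 0, summed to 1854 to 2184 CPM in BAT, 749 to 1200 CPM in SAT, 902 to 1302 CPM in VAT and 2090 to 2352 CPM in spleen, and the part of this in the members' levels was not tested as such.

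Between the white depots, 2 of 8 members were called, both higher in SAT than in VAT: Il12rb2 by 1.30 ± 0.31 (edgeR adjusted p 0.0156) and Ifng by 0.68 ± 0.16 (edgeR adjusted p 0.0135). The SAT and VAT samples overlapped for both. Among all genes 3.89% were called, 2.42% higher and 1.47% lower. Tbx21 (0.35), Ly6c2 (0.39) and Hopx (0.23) were not called, nor were Il18r1 (-0.38) and Il18rap (-0.32), whose means were lower in SAT. Both calls rest on SAT replicate 1, whose hashtag was weak: without it the change was 0.54 for Ifng (edgeR adjusted p 0.0946) and 1.11 for Il12rb2 (edgeR adjusted p 0.0929). Leaving out SAT replicate 4 also left no member called.

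Of the 4 lists of genes around the pathway, all 10 tested Th1 and effector transcription factors were higher in both white depots than in spleen. Bhlhe40, a factor that helps T cells make interferon-gamma, had 63.5 CPM in SAT and 54.1 CPM in VAT against 2.58 CPM in spleen (4.58 ± 0.27 and 4.34 ± 0.27). Runx2 (4.33 ± 0.38) in SAT and Zeb2 (4.49 ± 0.56) in VAT were the others with the greatest change. Of 21 effector products and surface genes, 17 were higher and 1 lower in SAT, and 18 higher and 1 lower in VAT. Ccl4, a chemokine, had 103 CPM in SAT against 1.13 CPM in spleen (6.96 ± 0.76), and Gzmb, which encodes granzyme B, had 67.2 CPM against 1.18 CPM (5.67 ± 0.38). The 17 signalling genes split: 8 were higher and 4 lower in SAT, and 6 higher and 6 lower in VAT, with medians of all genes at about 0. Their largest changes were in Il2rb, a chain of the IL-2 and IL-15 receptors (3.34 ± 0.16 in SAT, 2.86 ± 0.16 in VAT), and Il12rb1, the partner of Il12rb2 in the IL-12 receptor (3.31 ± 0.35 and 2.86 ± 0.37).

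Of the 6 tested genes of opposing lineages, 4 were also higher and 1 lower in each white depot, among them Maf (2.64 ± 0.19 in SAT) and, in SAT, the Th2 cytokine gene Il4, with 13.8 CPM against 0.943 CPM in spleen (3.53 ± 0.43). In BAT against spleen 5 of the 10 factors and 13 of the 21 effector genes were higher and none lower, led by Runx2 (2.29 ± 0.54), Bhlhe40 (2.01 ± 0.39), Csf2 (4.74 ± 1.37) and Gzmb (2.84 ± 0.57). Of the signalling genes, 2 were higher and 6 lower there, with Il2rb at 0.90 ± 0.20 and Socs3, an inhibitor of cytokine signalling, at -0.75 ± 0.17. Against SAT, BAT was lower for 8 of the 10 factors (Bhlhe40 -2.57, Id2 -2.22), 16 of 21 effector genes (Ccl4 -4.15, Klrg1 -3.14) and 11 of 17 signalling genes (Il2rb -2.44, Il12rb1 -2.43). Against VAT the counts were 7, 15 and 8. In SAT against VAT the effector list had 5 higher and 1 lower, with Gzmb at 2.10 ± 0.24 and Gzma, which encodes granzyme A, at -2.79 ± 0.68.

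The next question was how the Th1 genes divide between Foxp3-zero cells with and without a UMI of Cxcr3 or Cxcr6. All 8 were higher in the receptor-positive cells, in a fit with the hashed sample as a block, so that each sample was set against itself. Hopx had 267 ± 96.0 CPM in receptor-positive cells and 44.6 ± 27.5 CPM in cells with neither (SD, n = 16 each), with no overlap between any samples of the classes, and changed by 2.47 ± 0.12 (edgeR adjusted p 2.39e-16). Tbx21 had 72.9 ± 35.4 CPM against 10.9 ± 13.3 CPM, a change of 2.83 ± 0.23, and Ifng had 178 ± 113 CPM against 32.6 ± 36.7 CPM, a change of 2.44 ± 0.21. Il12rb2 had 16.1 ± 8.19 CPM against 1.79 ± 2.10 CPM and changed by 3.04 ± 0.35. These 4 genes were higher in the receptor-positive cells of 16 of 16 hashed samples.

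Stat4 (190 ± 39.6 CPM against 109 ± 19.2 CPM, 0.62 ± 0.06) and Il18r1 (102 ± 32.2 CPM against 41.6 ± 19.4 CPM, 1.12 ± 0.09) changed least, and Il18rap had 41.2 ± 18.7 CPM against 9.27 ± 9.23 CPM (2.12 ± 0.20), all in 16 of 16 samples. Ly6c2 had 205 ± 138 CPM in receptor-positive cells and 30.4 ± 34.5 CPM in cells with neither, a change of 2.76 ± 0.18, and was higher in 15 of 16 samples. The exception was spleen replicate 1, where 24 receptor-positive cells had no Ly6c2 UMI and the cells with neither had 2.97 CPM. Ly6c1 did the opposite in 16 of 16 samples, with 24.9 ± 12.7 CPM in receptor-positive cells and 100.4 ± 13.9 CPM in cells with neither (-2.46 ± 0.12), and its classes did not overlap. Of all 10146 genes, 41.6% were called, 21.3% higher and 20.3% lower, so a call alone is common here, and the median change was 2.45 for the members and -0.01 for all genes. Library medians of UMIs per cell were 6325 and 4549 in receptor-positive cells, against 5971.5 and 4363 in cells with neither.

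**Figure D2:**
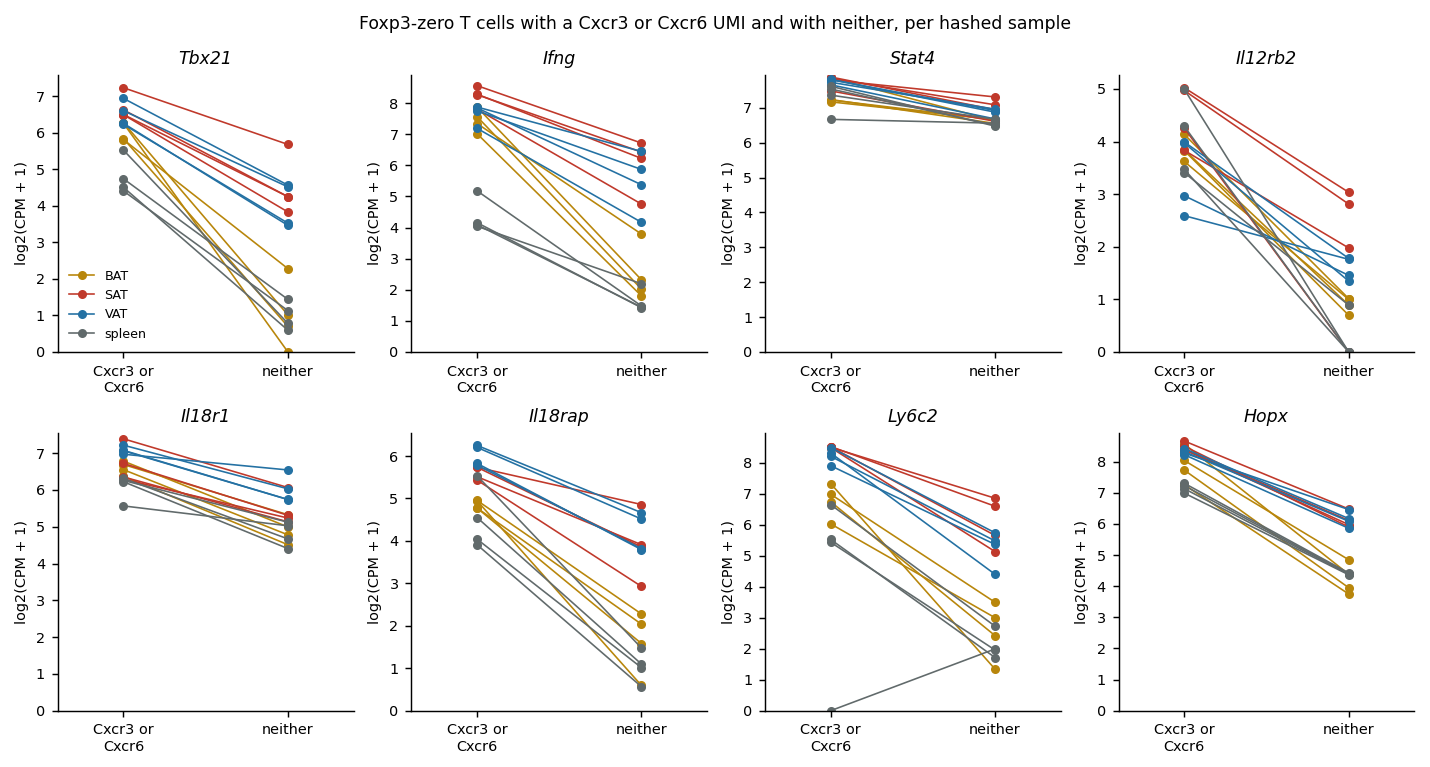
Level of each Th1 lineage gene as log2(CPM + 1) (y axes) in Foxp3-zero T cells with a Cxcr3 or Cxcr6 UMI (left) and with neither (right), with a line for each of the 16 hashed samples coloured by tissue. All lines fall to the right except that of spleen replicate 1 for Ly6c2.

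Levels of some members also differed between cells with UMIs of both receptors and cells with 1 of them. Here alone and neither mean that no UMI of a receptor was seen, not that the cell lacked it. In the libraries of experiments 1 and 2, Foxp3-zero cells with UMIs of both receptors had 252 and 304.5 CPM of Ifng, cells with Cxcr3 alone 186 and 123 CPM, cells with Cxcr6 alone 191 and 139.9 CPM, and cells with neither 19.91 and 20.997 CPM. Ly6c2 had 347 and 362 CPM with both, 181 and 177 CPM with Cxcr3 alone, 161 and 179 CPM with Cxcr6 alone and 18.0 and 23.1 CPM with neither. Tbx21 had 114 and 85.2 CPM with both, 83.3 and 53.6 CPM with Cxcr3 alone, 70.5 and 48.9 CPM with Cxcr6 alone and 7.38 and 6.17 CPM with neither. For these 3 genes the cells with both receptors were highest in each library. The library sums pool tissues in different proportions: of the cells with a clear hashtag, spleen gave 3.01% of those with both receptors, 10.6% of those with Cxcr3 alone and 9.05% of those with Cxcr6 alone. Within single samples, cells with both receptors were highest for Ly6c2 in 4 of 4 SAT and 4 of 4 VAT samples. They were highest for Tbx21 in 4 of 4 and 3 of 4, and for Ifng in 3 of 4 and 3 of 4. The other members varied: Hopx in 3 of 4 and 3 of 4, Il18rap in 3 of 4 and 2 of 4, and Il12rb2 in 2 of 4 and 3 of 4. For Stat4 it was 1 of 4 and 1 of 4, and for Il18r1 0 of 4 and 1 of 4, so not all members were highest with both receptors. None of these differences was tested.

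Around the members, 9 of 11 tested factors and 13 of 20 effector genes were higher in receptor-positive cells, and none of the factors and 3 of the effector genes lower. Id2, an inhibitor of DNA binding needed by effector T cells, had 645 CPM against 98.4 CPM (2.77 ± 0.16) and Ccl5, a chemokine of effector T cells, had 2369 CPM against 389 CPM (3.14 ± 0.35). Bhlhe40 rose by 2.45 ± 0.22. Of 17 signalling genes 8 rose and 6 fell: Il2rb rose by 2.68 ± 0.17 and Ifngr2, a chain of the interferon-gamma receptor, fell by 2.59 ± 0.20, to 7.72 CPM in receptor-positive cells against 32.2 CPM in cells with neither. Of 9 genes of opposing lineages 7 were higher and 1 lower. Il21 had 4.08 CPM against 0.499 CPM (2.78 ± 0.61), and Il13 had 2.69 CPM in receptor-positive cells and no UMI in cells with neither.

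The share of receptor-positive cells itself followed the tissue. Among Foxp3-zero cells BAT had 13.4% ± 4.06, SAT 63.6% ± 11.6, VAT 58.6% ± 8.96 and spleen 9.29% ± 2.06 (SD, n = 4 each). The tissues were therefore also compared within receptor-positive Foxp3-zero cells, at 40 to 135 cells a sample in BAT, 149 to 520 in SAT and 189 to 378 in VAT. Spleen, with 24 to 67 such cells a sample, was in the same fit and is described by its levels. There the depots were closer to each other. Of 8 members, 3 were called lower in BAT than in SAT (1.49% of 7741 genes called, 0.659% lower), 2 lower in BAT than in VAT (1.32% of genes, 0.452% lower) and 2 higher in SAT than in VAT (3.15% of genes, 2.16% higher).

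Ly6c2 had 64.03, 106, 125 and 159 CPM in receptor-positive cells of BAT, 359, 357, 363 and 365 CPM in SAT, 357, 238, 293 and 316 CPM in VAT, and 0, 99.0, 44.9 and 42.1 CPM in spleen. The BAT samples were all below the SAT and VAT samples, and the 4 SAT samples were close together. Ly6c2 was lower in BAT by -1.57 ± 0.20 against SAT (edgeR adjusted p 2.3e-05) and by -1.35 ± 0.20 against VAT (edgeR adjusted p 0.000155), and was called lower in BAT within each experiment alone. Il18rap had 26.4, 26.4, 30.0 and 29.8 CPM in BAT, 44.7, 52.3, 42.2 and 52.3 CPM in SAT, 72.7, 75.2, 55.7 and 54.1 CPM in VAT, and 45.4, 15.5, 22.4 and 14.0 CPM in spleen. The 3 fat depots did not overlap, with VAT highest. The change was -1.10 ± 0.22 in BAT against VAT (edgeR adjusted p 0.00476), while -0.67 ± 0.23 in BAT against SAT (edgeR adjusted p 0.160) and -0.44 ± 0.13 in SAT against VAT (edgeR adjusted p 0.0562) were not called.

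Ifng had 234, 129, 162 and 189 CPM in BAT, 378, 223, 309 and 312 CPM in SAT, 234, 215, 229 and 145 CPM in VAT, and 35.3, 15.5, 16.03 and 16.8 CPM in spleen. All 12 fat samples were above the 4 spleen samples, and BAT overlapped SAT and VAT. Ifng was called lower in BAT than in SAT (-0.74 ± 0.16, edgeR adjusted p 0.0196) and higher in SAT than in VAT (0.55 ± 0.13, edgeR adjusted p 0.00908), and its -0.19 ± 0.17 in BAT against VAT was not called. Without SAT replicate 1 the SAT against VAT change was 0.44 (edgeR adjusted p 0.130), and the BAT against SAT call was also lost without BAT replicate 2, BAT replicate 3, SAT replicate 1 or SAT replicate 4. Il12rb2 had 11.3, 13.2, 13.3 and 16.6 CPM in BAT, 30.4, 18.1, 13.2 and 31.5 CPM in SAT, 14.9, 6.83, 5.02 and 14.7 CPM in VAT, and 10.1, 18.6, 9.62 and 30.9 CPM in spleen. Its spleen samples lay within the range of the fat samples. It was higher in SAT than in VAT by 1.19 ± 0.29 (edgeR adjusted p 0.0141), a call lost without SAT replicate 1 (1.03, edgeR adjusted p 0.139).

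Tbx21 had 65.7 ± 11.7 CPM in receptor-positive cells of BAT, 106 ± 28.8 CPM in SAT, 91.6 ± 22.3 CPM in VAT and 28.1 ± 11.4 CPM in spleen (SD, n = 4 each). All BAT samples were below the SAT samples, but the change of -0.64 ± 0.18 was not called (edgeR adjusted p 0.0763). Hopx had 251 ± 96.0 CPM in BAT, 358 ± 33.6 CPM in SAT, 317 ± 18.7 CPM in VAT and 143 ± 13.4 CPM in spleen. It was called lower in BAT than in SAT (-0.46 ± 0.12, edgeR adjusted p 0.0477), with overlap, and this call was lost in 11 of the alternative settings. Stat4 and Il18r1 were called in no depot pair: Stat4 had 168 ± 42.5 CPM in BAT, 216 ± 25.8 CPM in SAT, 215 ± 10.8 CPM in VAT and 161 ± 42.5 CPM in spleen, and Il18r1 had 96.5 ± 11.96, 107 ± 41.4, 135 ± 9.66 and 68.6 ± 14.9 CPM in the same order.

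**Figure D3:**
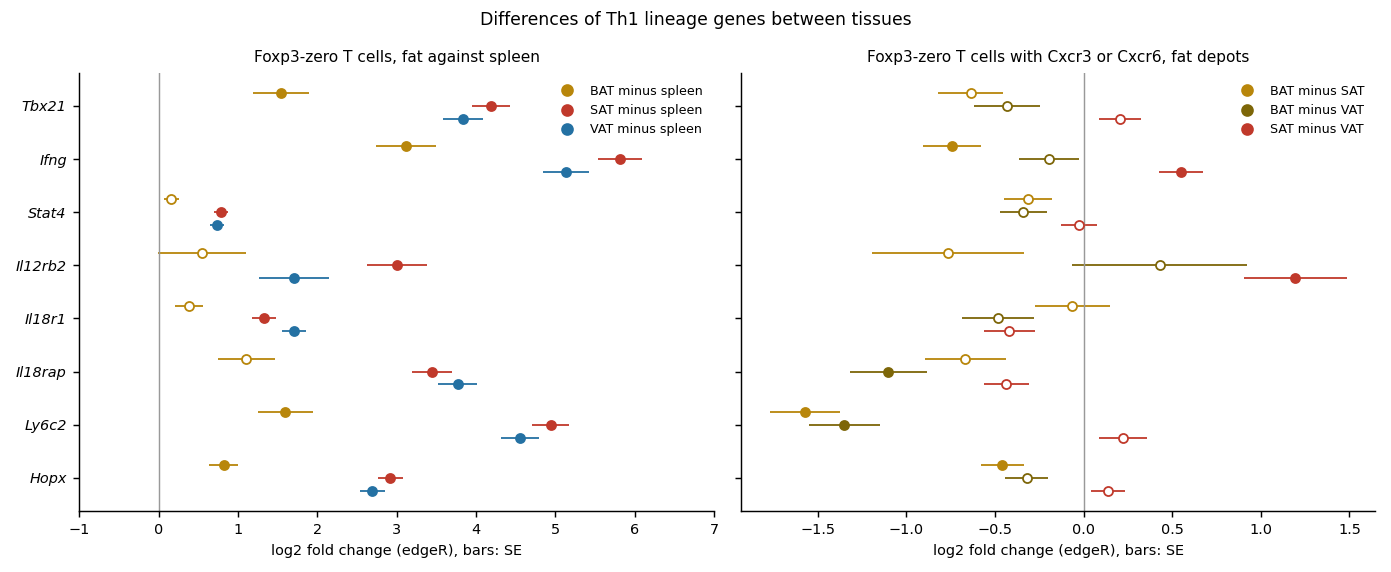
Log2 fold changes ± SE (x axes) of the 8 Th1 lineage genes (y axes) in Foxp3-zero T cells. The left panel sets BAT, SAT and VAT against spleen over all Foxp3-zero cells, the right panel the fat depots against each other within cells that had a Cxcr3 or Cxcr6 UMI; filled symbols were called at an adjusted p under 0.05. All SAT and VAT symbols of the left panel are filled, and in the right panel 7 of 24 are, with Ly6c2 in BAT farthest from 0.

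Naive markers also differed among receptor-positive cells, with all 6 summing to 598 to 1116 CPM in BAT, 372 to 565 CPM in SAT, 483 to 549 CPM in VAT and 802 to 1630 CPM in spleen, and their part in the levels was not tested. In cells with neither receptor, whose tissues were not tested against each other, Ifng had 5.59 ± 4.87 CPM in BAT, 72.3 ± 33.3 CPM in SAT, 50.3 ± 29.2 CPM in VAT and 2.19 ± 0.923 CPM in spleen, and Ly6c2 had 5.78 ± 3.73, 73.2 ± 37.9, 39.0 ± 13.6 and 3.43 ± 1.480 CPM in the same order (SD, n = 4 each). Of the lists, the effector list had 4 of 18 genes called in SAT against VAT, all higher, with Gzmb at 88.4 CPM against 18.8 CPM (2.20 ± 0.24) and Xcl1, a chemokine, at 321 CPM against 87.0 CPM (1.85 ± 0.13). Irf1 (0.41 ± 0.11), a factor of the interferon-gamma response, was among 3 of 16 signalling genes higher in SAT. In BAT against SAT 2 signalling genes, 1 factor and 4 effector genes were lower, among them Bhlhe40 (51.8 CPM against 84.0 CPM), and in BAT against VAT Socs3 (-1.09 ± 0.25) and Ifngr1 (-0.68 ± 0.18) were lower and Xcl1 was higher (1.12 ± 0.17).

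The third question was how far the Foxp3-positive cells shared the Th1 genes. The 13 hashed samples with at least 20 cells of each class were used, with the hashed sample as a block. Of 8 members, 6 were called lower in Foxp3-positive than in Foxp3-zero cells, though not in every sample, and Hopx was called higher. Over all 10173 genes 16.6% were called, 7.67% higher and 8.97% lower, and the median change was -0.83 for the members and -0.05 for all genes. Ly6c2 differed most, with 14.4 ± 25.3 CPM in Foxp3-positive and 128 ± 119 CPM in Foxp3-zero cells (-3.43 ± 0.29, edgeR adjusted p 2.61e-12), from 49 and 4778 UMIs. It was lower in 11 of 13 samples and the classes overlapped across tissues. Ly6c1, at 60.6 ± 28.6 CPM in Foxp3-positive and 68.8 ± 28.7 CPM in Foxp3-zero cells, was not called (-0.34 ± 0.17). Ifng had 32.1 ± 36.4 CPM against 108.7 ± 107 CPM (-1.94 ± 0.16, edgeR adjusted p 2.12e-12), and Tbx21 had 22.0 ± 24.2 CPM against 41.1 ± 40.1 CPM (-0.9985 ± 0.1976, edgeR adjusted p 0.000182), both lower in 11 of 13 samples.

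Il12rb2 had 1.85 ± 3.02 CPM against 7.65 ± 8.12 CPM (-1.85 ± 0.48, edgeR adjusted p 0.00444), with 8 UMIs in all Foxp3-positive sums. Il18rap had 17.4 ± 13.3 CPM against 24.1 ± 21.4 CPM (-0.65 ± 0.21, edgeR adjusted p 0.0253) and Stat4 had 128 ± 23.9 CPM against 144 ± 43.6 CPM (-0.32 ± 0.10, edgeR adjusted p 0.0271), each close to the threshold, and their calls were lost in 12 and 17 of the alternative settings. Il18rap was higher in Foxp3-positive cells of every spleen sample, at 12.1, 3.77, 3.69 and 4.13 CPM against 6.38, 3.06, 2.88 and 1.55 CPM. In BAT replicate 4 it was also higher. Stat4 was higher in Foxp3-positive cells of spleen replicates 1, 3 and 4, at 145, 147 and 145 CPM against 94.2, 96.8 and 97.3 CPM. It was also higher in BAT replicate 1. In their remaining samples both genes were lower. Il18r1, with 58.4 ± 26.2 CPM against 64.6 ± 34.1 CPM, was not called (-0.36 ± 0.17, edgeR adjusted p 0.173). Hopx alone among the members was called higher, with 259 ± 108 CPM in Foxp3-positive and 147 ± 108 CPM in Foxp3-zero cells. It was higher in 13 of 13 samples (0.82 ± 0.14, edgeR adjusted p 1.52e-05). When every cell was first thinned to 1300 UMIs, Tbx21 (-1.12), Ifng (-1.72) and Ly6c2 (-4.14) were called and Hopx was not (0.31 ± 0.14, edgeR adjusted p 0.146). The 6 naive markers, none at 0, summed to 254.9 to 1240 CPM in Foxp3-positive and 749 to 2352 CPM in Foxp3-zero samples, and their part was not tested.

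**Figure D4:**
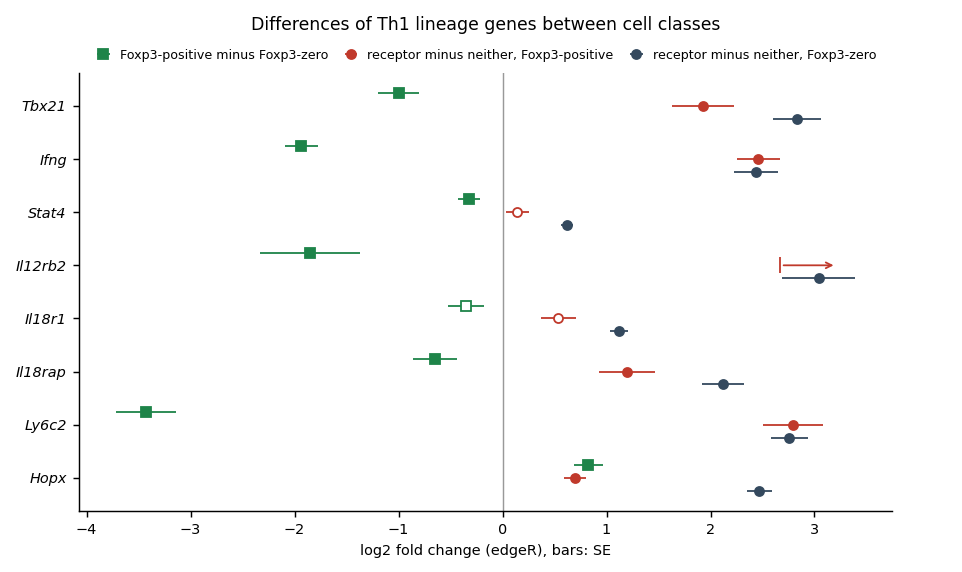
Log2 fold changes ± SE (x axis) of the 8 Th1 lineage genes (y axis): squares, Foxp3-positive minus Foxp3-zero T cells; red circles, cells with a Cxcr3 or Cxcr6 UMI minus cells with neither among Foxp3-positive cells; dark circles, the same among Foxp3-zero cells. Open symbols were not called, and the arrow marks a lower bound for Il12rb2; Hopx is the gene whose square is right of 0, and all dark circles are right of 0 and filled.

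The lists around the members did not move as one. None of the 17 signalling genes was lower in Foxp3-positive cells and 5 were higher, Ifngr1 with 536 CPM against 245 CPM (0.99 ± 0.08) and Irf8 with 30.5 CPM against 16.7 CPM (0.81 ± 0.28). Of 10 factors 6 were higher and 3 lower, led by Nfil3 (2.64 ± 0.32) and Irf4 (1.86 ± 0.28), a factor of effector Treg cells. Of 22 effector genes 5 were higher and 11 lower, and the greatest falls were those of Gzma (2.25 CPM against 31.8 CPM) and Xcl1 (9.24 CPM against 95.3 CPM). Of 6 genes of opposing lineages 3 were higher and 2 lower. Tcf7, a factor of naive and memory T cells, fell by 1.57 ± 0.10 and Il4 by 2.22 ± 0.71.

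Foxp3-positive cells were compared between tissues too, and here as well tissue and digestion cannot be told apart in the comparisons with spleen. BAT gave 2 samples with at least 20 cells and was described only. Tbx21 had 0 and 0 CPM in BAT (replicates 1 and 4), 60.3, 38.0 and 52.1 CPM in SAT (replicates 1, 3 and 4), 16.7, 58.1, 41.2 and 5.60 CPM in VAT, and 6.05, 0, 7.37 and 0 CPM in spleen. Ifng had 8.42 and 21.2 CPM in BAT, 133, 50.6 and 48.4 CPM in SAT, 61.1, 40.2, 16.5 and 22.4 CPM in VAT, and 0, 3.77, 3.69 and 8.26 CPM in spleen. Hopx had 126 and 254.6 CPM in BAT, 365, 325 and 368 CPM in SAT, 264, 322, 448 and 314 CPM in VAT, and 163, 121, 162 and 140.5 CPM in spleen. For Ifng and Hopx every SAT and VAT sample was above the spleen samples, and for Tbx21 VAT replicate 4 fell among them.

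In SAT against spleen, Tbx21 (3.76 ± 0.76, edgeR adjusted p 0.00182), Ifng (4.10 ± 0.53, edgeR adjusted p 5.43e-06) and Hopx (1.20 ± 0.19, edgeR adjusted p 0.000106) were called higher, 3 of the 6 members that had enough UMIs to be tested, against 8.22% of 4880 genes (5.10% higher, 3.11% lower). In VAT against spleen Tbx21, Ifng and Hopx were called again, Tbx21 at 3.04 ± 0.80, Ifng at 2.82 ± 0.59 and Hopx at 1.17 ± 0.18, against 11.1% of genes (6.37% higher, 4.71% lower). Stat4 was at 117.8 and 84.9 CPM in BAT, 132 ± 15.99 CPM in SAT (n = 3), 134 ± 27.9 CPM in VAT and 134 ± 23.9 CPM in spleen (SD, n = 4 each), and was not called, nor was Il18r1. Ly6c2 had 84.4, 4.22 and 3.72 CPM in SAT and 2.78, 53.7, 0 and 5.60 CPM in VAT, so that 1 sample of each depot held most of its UMIs, and its 3.08 ± 1.13 in SAT against spleen was not called (edgeR adjusted p 0.0973). Il12rb2 and Il18rap did not pass the filter on low counts: Il12rb2 had no UMI in BAT or spleen, and Il18rap had 14.9 to 24.1 CPM in SAT, 16.8 to 44.7 CPM in VAT and 3.69 to 12.1 CPM in spleen. In SAT against VAT no member was called by edgeR (1 at an unadjusted p under 0.05) or by DESeq2, against 0.266% of genes by edgeR (0.0820% higher, 0.184% lower), and Ifng was nearest (1.28 ± 0.35, edgeR adjusted p 0.173).

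The call of Tbx21 in VAT against spleen was lost without VAT replicate 2, VAT replicate 3 or spleen replicate 2, and within each experiment alone. Of the lists, 10 of 15 effector genes and 4 of 9 factors were higher in SAT than in spleen, with Nkg7, a granule gene of cytotoxic cells, at 259 CPM against 7.67 CPM (4.95 ± 0.42) and Id2 at 193 CPM against 32.6 CPM (2.70 ± 0.31). In VAT 9 effector genes and 6 factors were higher, and Ifngr1 rose by 1.5003 ± 0.202.

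Foxp3-positive cells with a Cxcr3 or Cxcr6 UMI were too few to be split by sample, so the 2 library sums of each class were used, in 1 fit over 4 classes with library as a term. Receptor-positive cells numbered 145 and 197, and cells with neither 192 and 298, with medians of 7733 and 5098 UMIs, against 5725.5 and 4213. These sums pool tissues, and the classes differ in them: of the cells with a clear hashtag, SAT and VAT gave 96 and 91 of 223 receptor-positive cells, against 62 and 102 of 379 with neither, while spleen gave 22 and 154. Sums per hashed sample, which compare the classes within samples, called no member, and their values follow the library results. They rest on few cells, so the lack of a call there does not show that the classes were alike. Receptor-positive Foxp3-positive cells numbered 0 to 5 a sample in BAT, 12 to 33 in SAT, 14 to 36 in VAT and 4 to 6 in spleen. Of 8 members, 6 were higher in the receptor-positive cells, where 6.00% of 12124 genes were called, 3.54% higher. Tbx21 had 41.6 and 39.4 CPM in receptor-positive cells and 7.97 and 12.5 CPM in cells with neither (1.93 ± 0.30, edgeR adjusted p 0.000554). Ifng had 75.3 and 66.9 CPM against 12.8 and 12.5 CPM (2.46 ± 0.21, edgeR adjusted p 9.42e-07). The libraries did not overlap between the classes for either gene. Il18rap had 30.9 and 23.1 CPM against 11.95 and 11.06 CPM (1.20 ± 0.27), and Hopx had 297 and 323 CPM against 186 and 189 CPM (0.70 ± 0.11). Il12rb2 had 8.61 and 5.95 CPM, 20 UMIs in all, in receptor-positive cells and no UMI in cells with neither, which makes it at least 6.36-fold higher against a floor of 3 UMIs over that class (edgeR adjusted p 0.00447). Stat4 (0.14 ± 0.11) and Il18r1 (0.54 ± 0.17) were not called.

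Ly6c2 had 66.7 and 68.4 CPM in receptor-positive Foxp3-positive cells, against 4.78 and 14.0 CPM in those with neither (2.79 ± 0.29, edgeR adjusted p 7.81e-06), and Ly6c1 fell by 1.37 ± 0.21, as it did among Foxp3-zero cells. These Ly6c2 UMIs were spread unevenly over cells. The 223 receptor-positive cells with the hashtag of 1 sample held 44 of them (29.3 CPM). The 65 cells with hashtags of more than 1 sample, which may be droplets that caught several cells, held 86 (110.4 CPM). The 54 cells with no clear hashtag held 55 (120.5 CPM). For Tbx21 the same 3 groups of cells had 42.6, 42.3 and 30.7 CPM. Without the cells of more than 1 hashtag sample the change of Ly6c2 was 2.78 ± 0.37 and 7 members were called, Il18r1 among them. When the Foxp3-positive cells were summed per hashed sample instead, which compared the classes within samples of a tissue and kept fewer cells, no member was called by edgeR and 4 had an unadjusted p under 0.05, with Ifng at 1.58 ± 0.46 (edgeR adjusted p 0.0614) and Tbx21 at 1.04 ± 0.43 (edgeR adjusted p 0.251). After thinning, Tbx21 (2.26) and Ifng (1.80) were the members called.

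The receptor effect was smaller in Foxp3-positive than in Foxp3-zero cells for 5 of 8 members, by the interaction term of the same fit, where 4.76% of genes were called, 2.96% lower. The difference was -2.07 ± 0.14 for Hopx (edgeR adjusted p 3.15e-08), -1.45 ± 0.38 for Tbx21, -1.41 ± 0.32 for Il18rap, -0.74 ± 0.19 for Il18r1 and -0.57 ± 0.12 for Stat4. For Hopx the level in cells with neither was 186 and 189 CPM when Foxp3-positive and 30.3 and 42.2 CPM when Foxp3-zero, while receptor-positive cells had 297 and 323 CPM when Foxp3-positive and 275 and 296 CPM when Foxp3-zero. The differences of Ifng (-0.73 ± 0.27, edgeR adjusted p 0.161) and Ly6c2 (-0.68 ± 0.38, edgeR adjusted p 0.427) were not called, nor was that of Il12rb2 (edgeR adjusted p 0.404). Per hashed sample, where tissues are not pooled, Hopx alone was called (-1.86 ± 0.18). Levels in cells with neither and the hashtag of 1 sample also differed for other members. Tbx21 (11.2 against 5.89 CPM), Stat4 (125 against 101 CPM), Il18r1 (43.7 against 34.4 CPM) and Il18rap (10.6 against 5.49 CPM) were higher when Foxp3-positive. Ifng (11.7 against 19.8 CPM), Il12rb2 (0 against 1.27 CPM) and Ly6c2 (3.73 against 18.7 CPM) were lower. These sums pool tissues, and these levels were not tested against each other. Among Foxp3-positive cells 10 of 21 effector genes and 5 of 11 factors were higher with a receptor, with Fasl, the gene of Fas ligand, at 15.7 CPM against 2.27 CPM and Id2 at 281 CPM against 89.3 CPM, and Ifngr1 rose by 0.83 ± 0.08.

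Co-detection was described in cells thinned to 1300 UMIs each, which left out 643 shallower T cells. Values over both libraries keep the cells with hashtags of more than 1 sample, whereas values per tissue leave them out. Among 10580 Foxp3-zero cells 60.8% had no UMI of any member, 15.1% had UMIs of at least 2 members and 5.17% of at least 3. Among 814 Foxp3-positive cells the shares were 57.1%, 11.7% and 2.46%. Cells with at least 2 members made up 4.12% ± 1.478 of Foxp3-zero cells from BAT, 30.9% ± 7.24 of those from SAT, 28.7% ± 6.34 of those from VAT and 2.004% ± 0.395 of those from spleen (SD, n = 4 each), with no overlap between the white depots and the other tissues. Without thinning the means were 16.8%, 63.5%, 60.2% and 14.3%. Among receptor-positive Foxp3-zero cells BAT had 23.9% ± 3.43, SAT 42.3% ± 3.9995, VAT 42.3% ± 4.75 and spleen 12.2% ± 6.19, and cells with neither had 1.13% ± 0.552, 10.4% ± 3.89, 9.18% ± 3.47 and 0.977% ± 0.408 in the same order. In Foxp3-positive cells BAT had 8.33% (n = 2), SAT 14.3% ± 7.72 (n = 3), VAT 12.8% ± 5.20 and spleen 7.70% ± 3.87 (n = 4 each), so that here the tissues overlapped.

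**Figure D5:**
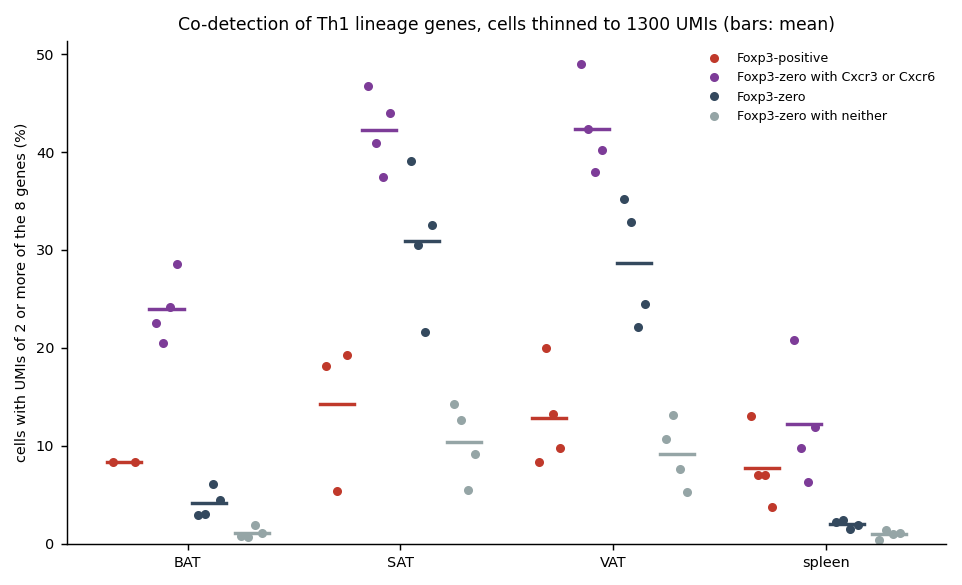
Percent of T cells with UMIs of at least 2 of the 8 Th1 lineage genes (y axis) after thinning to 1300 UMIs, in each hashed sample by tissue (x axis), for Foxp3-positive cells, Foxp3-zero cells with a Cxcr3 or Cxcr6 UMI, all Foxp3-zero cells and Foxp3-zero cells with neither. The receptor-positive cells of SAT and VAT are highest, at a mean of 42.3% each, and the cells with neither of BAT and spleen lowest, at about 1%.

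Pairs of members were found in the same cell more often than the product of their single shares would give. Among Foxp3-zero cells this held for 27 of 28 pairs, with a median ratio of 2.38, and likewise for 27 of 28 pairs, with a median of 2.51, without the cells that carry hashtags of more than 1 sample. Tbx21 and Ifng were seen together in 112 cells against 34.0 from the product (ratio 3.30), Ifng and Ly6c2 in 235 cells against 69.8 (3.36), and Il12rb2 and Ly6c2 in 45 cells against 8.82 (5.10). The chains of the IL-18 receptor were together in 49 cells against 17.8 (2.75). The pair below 1 was Il12rb2 with Il18r1, in 6 cells against 6.83. Since tissues and classes differ in all members, such ratios also hold what the mixing of classes gives.

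In Foxp3-zero cells with neither receptor, 19 of the 21 pairs that could be given a ratio were above 1. Their median was 2.60 (18 of 19 pairs and 2.17 without the cells that carry hashtags of more than 1 sample). Within receptor-positive Foxp3-zero cells the ratios were nearer 1, above it for 22 of 28 pairs with a median of 1.19 (22 of 28 and 1.19 without those cells). Tbx21 and Ifng were together in 100 of 3807 such cells against 69.4 (1.44), and Il12rb2 and Ly6c2 in 40 against 16.1 (2.48). The IL-18 receptor gene Il18r1 was below the product with Tbx21 (35 cells against 44.5) and with Ifng (66 against 78.9). By tissue, Tbx21 and Ifng were together in 3 of 1902 Foxp3-zero cells of BAT, in 55 of 1943 of SAT against 31.3 (1.76), in 37 of 2023 of VAT against 16.5 (2.25) and in 0 of 2227 of spleen. In SAT replicate 1 this ratio was 0.996, against 1.63 to 2.76 in the other SAT samples. Among Foxp3-positive cells 14 of the 16 pairs that could be given a ratio were above 1 (11 of 14 without cells of more than 1 hashtag sample). This came from few cells: Tbx21 and Ifng were together in 6 of 814 cells, 5 in experiment 1 and 1 in experiment 2. Stat4 and Hopx were together in 41 against 29.2 (1.40). In Foxp3-positive cells with a receptor, 10 of 16 pairs were above 1, with a median of 1.16 (8 of 14 and 1.04 without cells of more than 1 hashtag sample). In those with neither, 6 of 8 were, with a median of 1.64 (7 of 9 and 1.61).

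Genes of like pattern were ranked by Pearson's r of log2(CPM + 1) over the 16 Foxp3-zero sums, among 7364 genes (7365 for Il12rb2). Because the samples fall into SAT with VAT and BAT with spleen, r is given within these sets of 8 samples, as a description. For Tbx21 the nearest genes were Cd44 (0.946 within SAT and VAT, 0.969 within BAT and spleen), Id2 (0.888 and 0.962) and Lyst (0.948 and 0.898). For Ifng they were Gm49751 (0.879 and 0.958), the model inside the Ifng gene, Fgl2 (0.833 and 0.970) and Gem (0.977 and 0.940). Ly6c2 was nearest to Unc119 (0.559 and 0.916), Cd38 (0.823 and 0.847) and Il2 (0.880 and 0.879), and Hopx to Cxcr3 (0.7855 and 0.94995), Casp1 (0.780 and 0.932) and Il2rb (0.808 and 0.931).

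Stat4 was nearest to Samsn1 (0.766 and 0.892), Lyst (0.771 and 0.887) and Adam19 (0.926 and 0.626). Il12rb2, whose counts were lowest, was nearest to Gnas (0.924 and 0.751), Gimap7 (0.924 and 0.626) and H2-Q7 (0.909 and 0.432). Il18r1 was nearest to Itga4 (0.841 and 0.898), Fam204a (0.772 and 0.713) and Bscl2 (0.866 and 0.714), and Il18rap to Sytl3 (0.738 and 0.925), Rora (0.856 and 0.748) and Ccr2 (0.744 and 0.803). Between members, the 28 values of r had a median of 0.624 within SAT and VAT, from -0.452 to 0.944, and of 0.626 within BAT and spleen, from 0.0851 to 0.948. Tbx21 with Ifng gave 0.726 and 0.948. The samples of a set share their library in groups of 4.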

How the data were processed

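The deposited files hold raw UMI counts per gene and cell barcode and raw hashtag counts, 1 sparse matrix for each of 2 libraries, written by Cell Ranger 6.1.0 per the file headers, on mm10 per the submitters' processing notes. Seurat and bcl2fastq appear in those notes without version or setting. The unit of the matrices is the count per the file headers, and no value had been scaled.

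A cell needed 500 or more genes, 1000 or more UMIs and less than 10% mitochondrial UMIs. Hashtag counts were assigned to samples by a mixture of a negative state, 8 single states and 28 pair states, at a posterior above 0.95. In all, 7.53% and 13.6% of cells carried hashtags of several samples. They stayed out of all sums per hashed sample but not out of library sums, and no doublet caller was run. Their medians were 12184.5 and 2936 UMIs, against 5953.5 and 4611 in cells with the hashtag of 1 sample. Whether all of them held several cells was not tested. Cells with at least 3 markers of another cell type, or under 2 of 7 T cell genes, were left out, a rule set after seeing the data. Of the 15 hashtags, 7 per library have no label and held under 0.1% of hashtag counts.

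Raw UMIs were summed per hashed sample and class with at least 20 cells, and tested with edgeR 4.0.16 (R 4.3.3; TMM, filterByExpr with a minimum count of 10, quasi-likelihood test, Benjamini-Hochberg adjustment over all genes tested). Class comparisons had the hashed sample as a block, and tissue comparisons had experiment as a term. CPM are UMIs per 1000000 UMIs of a sum. Genes that define a class were left out of its test. Thinning drew 1300 UMIs a cell. The fits and the hashtag assignment were tested on simulated data. DESeq2 1.42.0, total UMIs in place of TMM, no filter on low counts, stricter hashtag assignment, thinning, leaving out NKT-marker cells, each replicate or each experiment, and leaving out the weak hashtags or, in co-detection, the cells of more than 1 hashtag sample (both added after seeing the data) were the alternatives. Promoters were searched with Python 3.11.15.

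The members and the gene lists were chosen with earlier results of these data known. Named beside the members are the 2 called genes of each list with the largest absolute change per comparison and the 3 genes of most similar pattern per member, with Ly6c1 as the close paralog. Some genes that this rule names are not reported here.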

Additional observations from a re-analysis of the deposited data

Results flagged for a closer look

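Of 79 groups of 4 hashed samples, 8 had a sample far from the others by Dixon's criterion, and chance gives about 1 in 20. Stat4 had 140.7 CPM in Foxp3-zero cells of SAT replicate 3, against 200.6 to 210.3 CPM in the other SAT samples. A few spleen values stood apart: Ifng in receptor-positive Foxp3-zero cells of replicate 1 (35.3 CPM against 15.5 to 16.8 CPM), Il18r1 in the same cells of replicate 2 (46.4 CPM against 73.7 to 78.6 CPM) and Stat4 in Foxp3-positive cells of replicate 2 (98.02 CPM against 144.6 to 147.4 CPM). Il18rap had 12.1 CPM in Foxp3-positive cells of spleen replicate 1, against 3.69 to 4.13 CPM in the others. Tbx21 had 148.9 CPM in receptor-positive Foxp3-zero cells of SAT replicate 1, a sample with a weak hashtag, against 88.8 to 97.5 CPM. Stat4 had 232.0 CPM in those cells of BAT replicate 4, the other sample with a weak hashtag, against 143.1 to 150.0 CPM. Ly6c2 had 53.7 CPM in Foxp3-positive cells of VAT replicate 2, against 0 to 5.60 CPM.

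For 5 members the interaction term showed a difference of the receptor effect between Foxp3-positive and Foxp3-zero cells: Tbx21 (-1.45), Stat4 (-0.57), Il18r1 (-0.74), Il18rap (-1.41) and Hopx (-2.07), on the log2 scale. These come from library sums that pool tissues; per hashed sample, Hopx alone was called.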

How the results depend on the processing

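Of 293 recomputed counts of members called, 254 stayed within 1.5 times the value reported, and of 2224 recomputed changes of single members none reversed, while 124 lost and 31 gained a call. The 8 of 8 calls in receptor-positive against receptor-negative Foxp3-zero cells and in SAT against spleen held in every alternative run. Total UMIs in place of TMM moved the median of all genes by 0.128 in Foxp3-positive against Foxp3-zero cells, by 0.196 between the receptor classes of Foxp3-zero cells, by -0.171 in the interaction, by 0.105 in SAT against spleen, by -0.144 in BAT against SAT and by -0.104 in BAT against VAT.

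The counts that moved were these. Foxp3-positive against Foxp3-zero cells, with 7 called, gave 3 after thinning and 4 in each experiment alone, and 5 to 8 when 1 sample was left out. The receptor comparison in Foxp3-positive cells, with 6, gave 2 after thinning and 0 with sums per hashed sample (4 at an unadjusted p under 0.05), and its interaction, with 5, gave 1, 1 and, without cells of more than 1 hashtag sample, 3. BAT against spleen, with 4, gave 1 in experiment 1 alone and 2 to 5 when 1 sample was left out. SAT against VAT in Foxp3-zero cells, with 2, gave 1 with DESeq2 and after thinning, 6 with no filter on low counts, 0 in experiment 1 alone and without the weak hashtags (3 and 2 at an unadjusted p under 0.05), and 0 to 3 when 1 sample was left out. Within receptor-positive cells it gave 0 with DESeq2, in experiment 1 alone and without the weak hashtags (3 at an unadjusted p under 0.05 in each), 1 with strict hashtags, and 0 to 3 when 1 sample was left out. There BAT against SAT, with 3, gave 1 in experiment 2 alone and 1 to 3 when 1 sample was left out, and BAT against VAT, with 2, gave 1 after thinning, 1 in experiment 2 alone and 2 to 3 when 1 sample was left out. In Foxp3-positive cells SAT against spleen, with 3, gave 1 after thinning, VAT against spleen, with 3, gave 1 after thinning and 1 in experiment 2 alone and 2 to 3 when 1 sample was left out, and SAT against VAT, with 0, gave 1 with no filter. Leaving out 1 sample also moved the number of all genes called. Foxp3-positive against Foxp3-zero cells gave 1453 to 1655, beside 1693 with all samples. BAT against spleen gave 556 to 663 beside 794, and SAT against VAT 168 to 545 beside 388. Within receptor-positive cells SAT against VAT gave 117 to 239 beside 244. There BAT against SAT gave 24 to 126 beside 115, and BAT against VAT 59 to 83 beside 102. VAT against spleen in Foxp3-positive cells gave 399 to 539 beside 541. The cells with at least 2 members in SAT were 63.5% without thinning, against 30.9%. The cause of these moves was not tested.

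No pairing of the tissues by replicate number was seen: 12 correlations of deviations between same-numbered samples ran from -0.108 to 0.0433, none above 0.1. With each tissue only in duplicate per experiment, they cannot tell whether same-numbered samples share an animal. With a replicate block the tissue fits called 8, 8, 4, 2, 8 and 8 members in Foxp3-zero cells (SAT, VAT and BAT against spleen, SAT against VAT, BAT against SAT and against VAT), 2 in each fit of receptor-positive cells, and 3, 3 and 0 in Foxp3-positive cells. Depth limits the Foxp3-positive sums most, at 94264 to 364171 UMIs a sample, where Il12rb2 and Il18rap did not pass the filter on low counts in the tissue comparisons.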
